A study of Mus musculus with 8 samples.

Results

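The complement genes described here are C3, C4b, C1ra, Cfb, Cfd, Serping1, Cd55, Cd59a and Clu. They were taken by symbol from the deposited table, and all 9 were found among its 24630 genes. Messenger RNA had been sequenced from quiescent muscle stem cells, which lie beneath the sheath of muscle fibres and rebuild them after injury, of old (22 months, n = 4) and young (4 months, n = 4) male C57BL/6 mice. Each library came from a single animal, and the labels name no transgene or treatment. The cells had been sorted from limb muscle as CD45-, CD31-, Sca1- and VCAM+ and used without culture. The comparison asks which transcripts differ with age before the cells are activated.

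Complement is a cascade of plasma and cell surface proteins that marks targets for clearance. The classical branch works through the proteases C1r and C1s, of which C1s cleaves C4 and C2, and the alternative branch runs through factor B and factor D. Both lead to cleavage of C3 and, further down, to a pore built from the terminal components, while soluble and membrane-bound regulators hold the cascade back on host cells. The liver supplies most of the plasma proteins, and fibroblasts and other stromal cells also transcribe several of them.

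Promoter windows of RefSeq (build GRCm38.p6, from 250 bases before to 50 after the annotated start) were matched for 5 of the 9 genes, C1ra, C3, Cd55, Cd59a and Cfd. C4b, Cfb, Serping1 and Clu were not matched. The windows of C3 (17, minus strand, chr17:57228087-57228386) and Cd55 (1, minus strand, chr1:130462695-130462994) are shown because these genes had a lower share of reads in old animals, and capitals mark the motifs described after them.
C3: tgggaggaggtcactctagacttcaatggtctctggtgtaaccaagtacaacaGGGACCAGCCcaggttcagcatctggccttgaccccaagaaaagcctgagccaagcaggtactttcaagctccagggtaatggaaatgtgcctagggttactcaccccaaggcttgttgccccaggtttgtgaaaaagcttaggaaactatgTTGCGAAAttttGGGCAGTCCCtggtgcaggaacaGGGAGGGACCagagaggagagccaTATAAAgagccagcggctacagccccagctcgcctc
Cd55: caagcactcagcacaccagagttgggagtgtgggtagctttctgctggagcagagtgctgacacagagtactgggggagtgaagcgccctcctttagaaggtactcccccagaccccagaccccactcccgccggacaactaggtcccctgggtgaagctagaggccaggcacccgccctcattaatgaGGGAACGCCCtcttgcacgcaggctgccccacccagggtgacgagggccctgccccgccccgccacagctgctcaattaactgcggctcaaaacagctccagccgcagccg

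Both strands were searched for 6 motifs, and no matches overlapped in these windows. The C3 window held 1 match to the C/EBP motif TTGCNNAA, which 10.8% of all 32851 RefSeq windows of this length held. It also held 3 matches to the NF-kappaB motif, GGGA and CC with 4 bases of any kind between them (in 20.7% of all windows) and 1 match to the TATA box TATAAA (in 13.6%), which lay 15 to 20 bases after the annotated start. The Cd55 window held 1 match to the NF-kappaB motif, 52 to 61 bases before the start. In the Cd59a window 1 match to the IRF motif was found, GAAA repeated after 2 bases of any kind (in 3.44% of all windows). In the C1ra window there was 1 match to the C/EBP motif, 17 to 24 bases after the annotated start. The same window held 1 match to the STAT motif TTCNNNGAA (in 8.3%), 33 to 41 bases after that start. In the GENCODE annotation C1ra begins at 124512405, which lies within this window (chr6:124512371-124512670) and before the RefSeq start. The AP-1 motif TGANTCA (in 7.81%) had no match in the 5 windows, and the Cfd window held none of the 6.

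Levels are given as RPKM (reads per gene, divided by gene length in kilobases and by library size), scaled to the total reads in genes of each library. In M, or mega-reads, these totals were 20.1 to 24.9 M for the old libraries and 1.91 to 6.56 M for the young, so that depth and age cannot be told apart. On the deposited scale, which uses library sizes of the authors' own, the median gene stood 0.64 log2 units higher in old animals, and on library totals it stood at -0.01. Spike-in RNA was not used here, and which scale is nearer to RNA per cell was not tested, so a call that differs between the scales is given on both. Tests were made with limma on log2(RPKM + 1) over the 5703 genes whose mean reached 5 deposited RPKM, old minus young, at a Benjamini-Hochberg adjusted p under 0.05. "Rose" and "fell" mean past this threshold on library totals, so that they describe shares of a library. In such bulk samples fewer cells of a type and less RNA per cell cannot be told apart. All 12 satellite cell markers passed the filter, and 5 of them fell while 1 rose, where 12.7% of all tested genes fell and 12.3% rose. By deposited values 4 of the 12 were called higher and 1 lower, where 68.1% and 1.12% of all tested genes were. Pax7, their defining transcription factor, had 10.7 ± 2.47 RPKM in the old mice, against 17.6 ± 3.50 RPKM in the young mice (SD, n = 4), and was not called by deposited values (-0.03).

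Of the 9 genes, 6 passed the filter. Relative to other transcripts, the central component C3 and the soluble regulator clusterin (Clu) fell in old cells, with log2 fold changes of -1.21 and -1.20. The classical branch genes C1ra and C4b and the C1 inhibitor Serping1 were not called, and neither was the membrane regulator Cd59a. Counted by direction, 2 of the 6 fell and 0 rose, where 12.7% of all tested genes fell and 12.3% rose. With the deposited values 0 of the 6 were called lower and 3 were called higher (C4b, C1ra and Serping1), where 1.12% of all tested genes were called lower and 68.1% higher. The median log2 fold change of the 6 was -0.12 on library totals and 0.54 by the deposited values. At an unadjusted p under 0.05, 0 of the 6 were higher and Cd59a was also lower on library totals, and 0 were lower with the deposited values. The limma-voom variant likewise called 2 lower and 0 higher. With so few members tested, 2 of 6 gives no firm reading against the background.

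**Figure D1:**
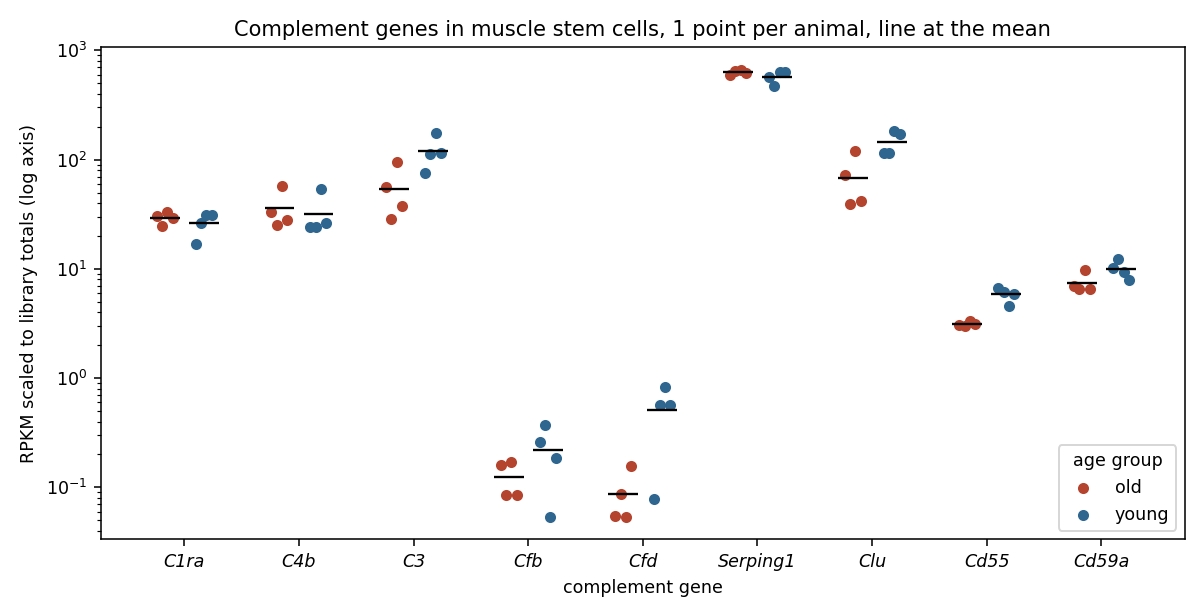
RPKM scaled to library totals (log axis) of the 9 complement genes, 1 point per animal, old (left of each pair) and young, with a line at the mean of 4 animals; libraries without a Cfd read are drawn at the small value that stands for 0 in the deposited table. Serping1 lay between 469 and 665 RPKM in every library, Cfb and Cfd under 1 RPKM, and the Cd55 values of the old animals lay below those of the young.

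Of all the members Serping1 was the most abundant per kilobase. Its product, C1 inhibitor, blocks C1r and C1s (chromosome 2, 84765387 to 84775444, minus strand). Old libraries 1 to 4 held 589, 654, 665 and 615 RPKM on library totals, and young libraries 1 to 4 held 571, 469, 634 and 631 RPKM. The groups overlapped, with young library 2 the lowest. The log2 fold change was 0.14 ± 0.13 (SE, 95% interval -0.14 to 0.42, limma adjusted p = 0.455). By the deposited values Serping1 averaged 807 ± 114 RPKM in the old mice, against 465 ± 126 RPKM in the young mice (SD, n = 4), and the groups did not overlap. That log2 fold change was 0.83 (adjusted p = 0.00577), where the median of all tested genes was 0.64 and 61.2% of them stood higher without overlap. On both scales the 95% interval of Serping1 held the median of all tested genes. The 3 tested genes with the most similar profile over the 8 libraries were Prdx5, Mmgt1 and Nup62, with root mean square differences of 0.0355 to 0.0511 log2 units. The median over all tested genes was 0.298.

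C1ra encodes the protease C1r of the classical branch (chromosome 6, 124512405 to 124523443, plus strand). It had 30.4, 24.6, 33.5 and 29.0 RPKM in old libraries 1 to 4 and 17.1, 26.1, 31.0 and 31.1 RPKM in young libraries 1 to 4. All values but that of young library 1 lay within a narrow band. The log2 fold change was 0.18 ± 0.18 (95% interval -0.22 to 0.58, limma adjusted p = 0.498), and without young library 1 it was -0.01. With the deposited values it was 0.85 (adjusted p = 0.00210). The near-identical copy C1rb had 0 or 1 read in each old library and 4 to 9 reads in each young library, and reads shared by the copies cannot be assigned with certainty.

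C4b, the C4 gene that acts in the classical branch, lies in the major histocompatibility region (chromosome 17, 34728380 to 34743882, minus strand). Old libraries 1 to 4 had 33.3, 25.2, 57.5 and 27.8 RPKM, and young libraries 1 to 4 had 24.0, 24.3, 53.3 and 26.3 RPKM. In each age group library 3 stood apart from the other libraries, which lay close together, and the groups overlapped. The log2 fold change was 0.17 ± 0.29 (95% interval -0.46 to 0.80, limma adjusted p = 0.691), against 0.84 on the deposited scale (adjusted p = 0.0105). Without old library 3 it was -0.07 on library totals. The paralogue C4a held 16 to 39 reads per old library and 9 to 24 per young library, so that some of its reads may belong to either copy.

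C3, which every branch of the cascade cleaves, fell (chromosome 17, 57203970 to 57228136, minus strand). It had 55.7, 28.7, 94.8 and 37.7 RPKM in old libraries 1 to 4 and 76.1, 114, 174 and 114 RPKM in young libraries 1 to 4. Of the old libraries 3 lay below all young ones, and old library 3 lay above young library 1. The means were 54.2 ± 29.3 RPKM in the old mice, against 119 ± 40.5 RPKM in the young mice (SD, n = 4), which is -1.21 ± 0.33 as a log2 fold change (SE, 95% interval -1.94 to -0.48, limma adjusted p = 0.0218). The deposited values of C3 averaged 67.3 ± 32.5 RPKM in the old mice, against 95.9 ± 41.4 RPKM in the young mice, and C3 was not called on that scale (log2 fold change -0.52, adjusted p = 0.115). The 95% interval of that fold change was -1.13 to 0.09, where the median of all tested genes stood at 0.64. The call on library totals was lost without old library 2 (adjusted p = 0.0545), old library 4 (0.0696) or young library 3 (0.0653), while the direction held with each of the 8 libraries left out (-1.52 to -0.96). Leaving out old library 3 and young library 3 together, an alternative chosen after seeing the data, gave -1.32 ± 0.24 (adjusted p = 0.00868). With the reads of each library thinned to the smallest total it was -1.15 ± 0.33 (adjusted p = 0.0323).

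Clusterin, a secreted chaperone that binds the terminal components and keeps them out of membranes, fell by a like amount (chromosome 14, 65968483 to 65981547, plus strand). Clu had 71.9, 39.4, 121 and 41.4 RPKM in old libraries 1 to 4 and 115, 114, 185 and 170 RPKM in young libraries 1 to 4. Again old library 3 alone reached the young range. Its means were 68.4 ± 38.0 RPKM in the old mice, against 146 ± 36.6 RPKM in the young mice (SD, n = 4), and the log2 fold change was -1.20 ± 0.32 (95% interval -1.90 to -0.51, limma adjusted p = 0.0179). For the deposited values the fold change was -0.51 (adjusted p = 0.126), where the median of all tested genes stood at 0.64. The call was lost without old library 4 (adjusted p = 0.0594) or young library 3 (0.0539), and without both libraries numbered 3 the fold change was -1.40 ± 0.24 (adjusted p = 0.00801). Thinned to equal depth, Clu gave -1.18 ± 0.31 (adjusted p = 0.0249).

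C3 and Clu followed each other across the libraries. By the root mean square difference of centred log2 profiles over 8 libraries, C3 was the tested gene nearest to Clu (0.209), and the chemokine Cxcl12 was nearest to C3 (0.167), with Clu next (0.209). The lipid desaturase Scd2 stood at 0.219 from C3 and 0.216 from Clu, where the median over all tested genes was 0.833 from C3 and 0.819 from Clu. Since the age difference is part of such a profile, the fold changes of Cxcl12 (-1.28) and Scd2 (-1.18) follow from the choice and are given as a description. Cxcl12 had 30.3, 19.1, 66.1 and 18.1 RPKM in old libraries 1 to 4 and 52.8, 71.2, 109 and 65.7 RPKM in young libraries 1 to 4. Within the old group 8 of the 9 complement genes were highest in library 3, Cfd being the exception, and within the young group 5 of 9 were highest in library 3. Some margins were small, as for Serping1 (665 against 654 RPKM in old library 2) and Cfb (11 against 9 reads in old library 1). The share over all tested genes was not computed, so these counts give no reading against a background.

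Sums of marker genes of other cell types are given for the same libraries, and those of satellite cells lay at 12839 to 17447 CPM (reads per M of reads in genes) in old and 13334 to 17005 CPM in young libraries. The summed endothelial markers (9 genes) were 333, 196, 495 and 231 CPM in old libraries 1 to 4 and 513, 593, 510 and 531 CPM in young libraries 1 to 4. They were lower in old animals without overlap (exact two-sided permutation test over 70 assignments, p = 0.0286, the smallest that 4 against 4 allows). Old library 3 was the highest of its group, and young library 3 was the lowest of its own. Of the 9 endothelial genes 5 passed the filter, and 0 were called on either scale. On library totals 12.3% of all tested genes rose and 12.7% fell, and by deposited values 68.1% were called higher and 1.12% lower. The macrophage sum (11 genes) was also highest of the old in library 3, with 71.0 to 164 CPM in old and 93.5 to 172 CPM in young libraries. The fibroblast sum (14 genes) lay at 4349 to 7327 CPM in old and 5892 to 7629 CPM in young libraries, lowest in old library 2 and highest of the young in library 3. The fibroblast and macrophage sums overlapped between the ages. Of the 14 fibroblast genes 10 passed the filter, and they did not move together. Among them 1 rose (Dcn), 2 fell (Col1a1 and Cd34) and 7 were not called, where 12.3% of all tested genes rose and 12.7% fell. By deposited values 1 was called higher (Dcn) and 1 lower, where 68.1% and 1.12% of all tested genes were. The pericyte sum (8 genes) was 467 to 1067 CPM in old and 863 to 1086 CPM in young libraries. The adipocyte sum (10 genes) was 290 to 413 CPM in old and 419 to 519 CPM in young libraries. The tenocyte sum (7 genes) ran the other way, with 1731 to 5244 CPM in old and 652 to 1011 CPM in young libraries. Hepatocyte markers (6 genes) summed to 0.845 to 1.83 CPM in old and 4.12 to 20.9 CPM in young libraries. All 6 were under the filter of 5 RPKM. Olfactory and vomeronasal receptor genes, silent in muscle, were likewise higher in young libraries (0.210 to 0.996 RPKM) than in old (0.0342 to 0.0518 RPKM). The part of such low-level signal in the hepatocyte sum was not tested. The adipocyte, tenocyte and hepatocyte sums did not overlap between the ages on library totals, while on the deposited scale the fibroblast, adipocyte, macrophage and pericyte sums were higher on average in old animals. Every marker had a read in at least 1 library. The part of these cell types in the C3 and Clu difference was not tested.

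**Figure D2:**
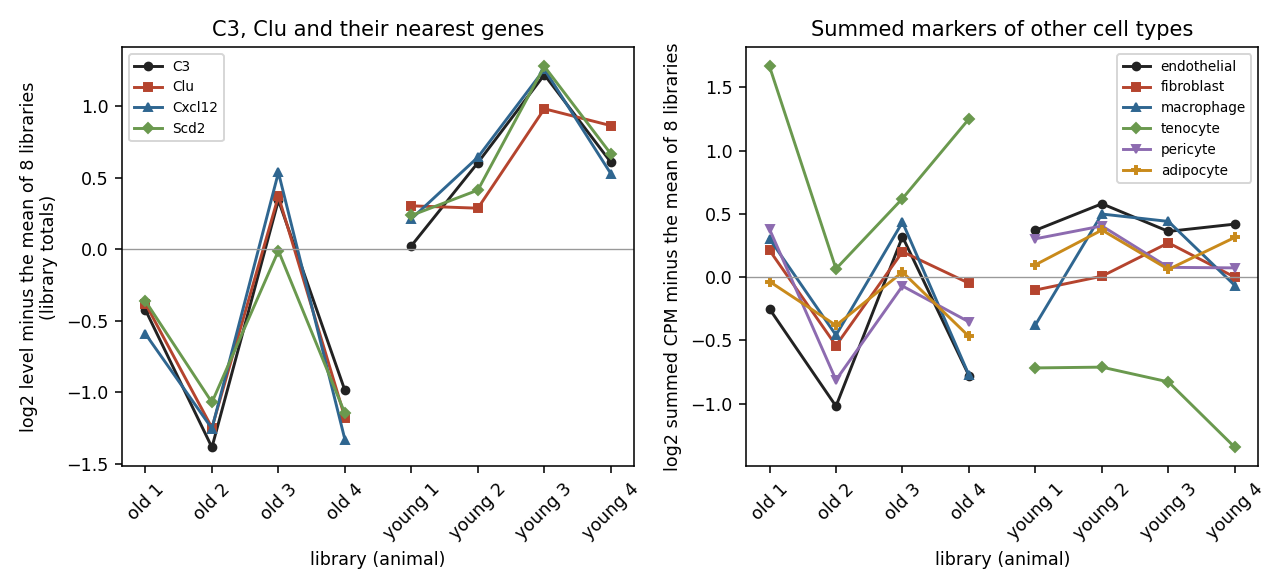
Left, log2 RPKM on library totals of C3, Clu, Cxcl12 and Scd2 minus each gene's mean over the 8 libraries; right, log2 summed CPM of marker lists of 6 other cell types, centred the same way; lines join the animals of a group, which have no order. Old library 3 stands above the other old libraries for C3 (94.8 RPKM), Clu (121 RPKM) and the endothelial sum (495 CPM). Young library 3 is the highest of the young for C3 (174 RPKM) and Clu (185 RPKM) and the lowest for the endothelial sum (510 CPM). The tenocyte sum is higher in all 4 old libraries.

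The membrane regulators protect the cell that carries them. Cd55, or decay-accelerating factor, takes apart the enzymes that cleave C3 (chromosome 1, 130439027 to 130462744, minus strand). With a mean under 5 deposited RPKM it was not in the main test. It had 3.07, 3.01, 3.37 and 3.13 RPKM on library totals in old libraries 1 to 4, from 299 to 374 reads each. In young libraries 1 to 4 it had 6.65, 6.14, 4.59 and 5.94 RPKM, from 57 to 164 reads each. Every old value was below every young value (exact two-sided permutation test, p = 0.0286, the smallest this design allows). Of the genes tested at a mean of at least 5 RPKM, which do not include Cd55, 13.4% stood lower without overlap and 13.8% higher. These shares were not computed for genes at the level of Cd55. In a wider fit of 11096 genes whose mean reached 1 RPKM, Cd55 stood at -0.71 ± 0.13 on the log2 scale (limma adjusted p = 0.00525), where 22.3% of genes were called lower and 7.27% higher. The same fit to deposited values gave -0.15 (adjusted p = 0.414), and the groups overlapped at 4.01 ± 0.340 RPKM in the old mice, against 4.59 ± 0.820 RPKM in the young mice (SD, n = 4). Only 0.473% of tested genes stood lower without overlap on that scale. Genes silent in muscle, the olfactory and vomeronasal receptors (1411 genes), averaged 0.0342 to 0.0518 RPKM in old and 0.210 to 0.996 RPKM in young libraries, and the part of this low-level signal in the Cd55 difference was not tested. Cd55 overlaps the antisense gene Gm16083, and with no strand setting stated the reads of this pair cannot be separated. The paralogue Cd55b held at most 8 reads in any library.

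Cd59a blocks the assembly of the terminal pore (chromosome 2, 104095801 to 104115354, plus strand). It had 6.93, 6.53, 9.77 and 6.61 RPKM in old libraries 1 to 4 and 10.2, 12.4, 9.43 and 7.96 RPKM in young libraries 1 to 4. Old library 3 reached into the young range, and the other 3 old libraries lay below every young one. The log2 fold change was -0.38 ± 0.16 (95% interval -0.74 to -0.02, limma adjusted p = 0.109) by library totals, and 0.24 ± 0.17 (adjusted p = 0.216) with the deposited values. Without old library 3 the gene was called lower on library totals (-0.50, adjusted p = 0.0425).

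The alternative branch proteases were at the limit of detection. Cfb, factor B (chromosome 17, 34856374 to 34862518, minus strand), had 5 to 11 reads in each old library and 1 to 3 reads in each young library. In RPKM this was 0.0851 to 0.17 in old and 0.0540 to 0.370 in young libraries, where 3 reads correspond to 0.162 to 0.555 RPKM in the young. It overlaps the read-through gene model Gm20547, with which reads may be shared. Cfd, factor D or adipsin, is made in quantity by adipocytes (chromosome 10, 79890853 to 79892655, plus strand). It had 0, 2, 0 and 3 reads in old libraries 1 to 4 and 0, 1, 5 and 3 reads in young libraries 1 to 4. Exact two-sided permutation tests gave p = 0.314 for Cfb and p = 0.0857 for Cfd. Without young library 3 the p for Cfb was 0.0286, and without young library 1 that for Cfd was 0.0286, the smallest that 3 against 4 allows. Each of these young libraries had at most 1 read of the gene, and no difference was detectable for either gene with all libraries at this depth. The adipocyte-defining genes were low as well, with Adipoq at 0.175 ± 0.110 RPKM in the old mice, against 0.304 ± 0.341 RPKM in the young mice (SD, n = 4). Plin1 had 0.0222 ± 0.0155 RPKM in the old mice, against 0.715 ± 0.219 RPKM in the young mice, close to the level of the silent receptor genes.

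Beyond these genes, a list of 55 other complement genes was examined, of which 8 passed the filter of 5 RPKM. Of the 8, 1 rose (C7), 0 fell and 7 were not called by limma or by limma-voom, close to the 12.3% of all tested genes that rose and the 12.7% that fell. Among the uncalled genes Vtn was lower, and Calr and Thbd were higher, at an unadjusted p under 0.05.

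C7, a component of the terminal pore, had 35.1, 12.8, 38.6 and 25.8 RPKM in old libraries 1 to 4 and 4.11, 13.7, 9.97 and 10.1 RPKM in young libraries 1 to 4 (chromosome 15, 4988762 to 5063740, minus strand). Old library 2 lay below young library 2, and the other old libraries lay above all young ones. Its log2 fold change was 1.46 ± 0.36 (limma adjusted p = 0.0131). The deposited values gave 2.10. Old library 2 was also lowest of the old for the tenocyte (1731 CPM), fibroblast (4349 CPM), pericyte (467 CPM), endothelial (196 CPM) and hepatocyte (0.845 CPM) sums. Of these sums only that of tenocytes was higher on average in old animals on library totals, as C7 was. The adipocyte (290 CPM) and macrophage (71.0 CPM) sums were lowest in old library 4. C7 was highest in old library 3, and the tenocyte sum was highest in old library 1 (5244 CPM) with 2544 CPM in old library 3. The part of these cell types in the C7 difference was not tested. The call of C7 held in each of the alternatives run, with an adjusted p of at most 0.0368 with single libraries left out.

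The other 7 tested genes of the list were the classical protease C1s1, the collectin Colec12, the soluble terminal-complex inhibitor vitronectin (Vtn), the convertase regulator Cr1l, the C1q-binding proteins C1qbp and Calr, and thrombomodulin (Thbd). Their log2 fold changes on library totals lay between -0.32 (Colec12) and 0.38 ± 0.14 (Thbd, limma adjusted p = 0.0748). By deposited values 6 of the 8 were called higher and all differences of the 8 were positive, where 68.1% of all tested genes were called higher and the median gene stood at 0.64. C1s1, which works with C1r, had 43.3, 30.2, 50.9 and 30.2 RPKM in old libraries 1 to 4 and 36.1, 31.8, 52.5 and 41.8 RPKM in young libraries 1 to 4, again highest in library 3 of each group. It overlaps the antisense gene Gm16567, whose reads cannot be separated from its own. The remaining 47 genes of the list had means under the filter, from 0.192 to 4.12 RPKM on library totals with a median of 0.561 RPKM. The highest of them were Cd93, C1qb, Ptx3 and Cfp. In the wider fit at a mean of 1 RPKM, 21 of the list were tested on library totals. There 2 were called higher (C7 and Masp1) and 0 lower, where 7.27% of genes were called higher and 22.3% lower. Masp1 had 2.71 ± 0.619 RPKM in the old mice, against 1.14 ± 0.305 RPKM in the young mice (SD, n = 4). The groups did not overlap on either scale. Reads of Masp1 numbered 127 to 221 in the old libraries and 6 to 19 in the young. Of the 5703 genes in the main test, Masp1 not among them, 13.8% stood higher without overlap on library totals and 61.2% by deposited values. Such shares for genes as low as Masp1 were not computed.

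**Figure D3:**
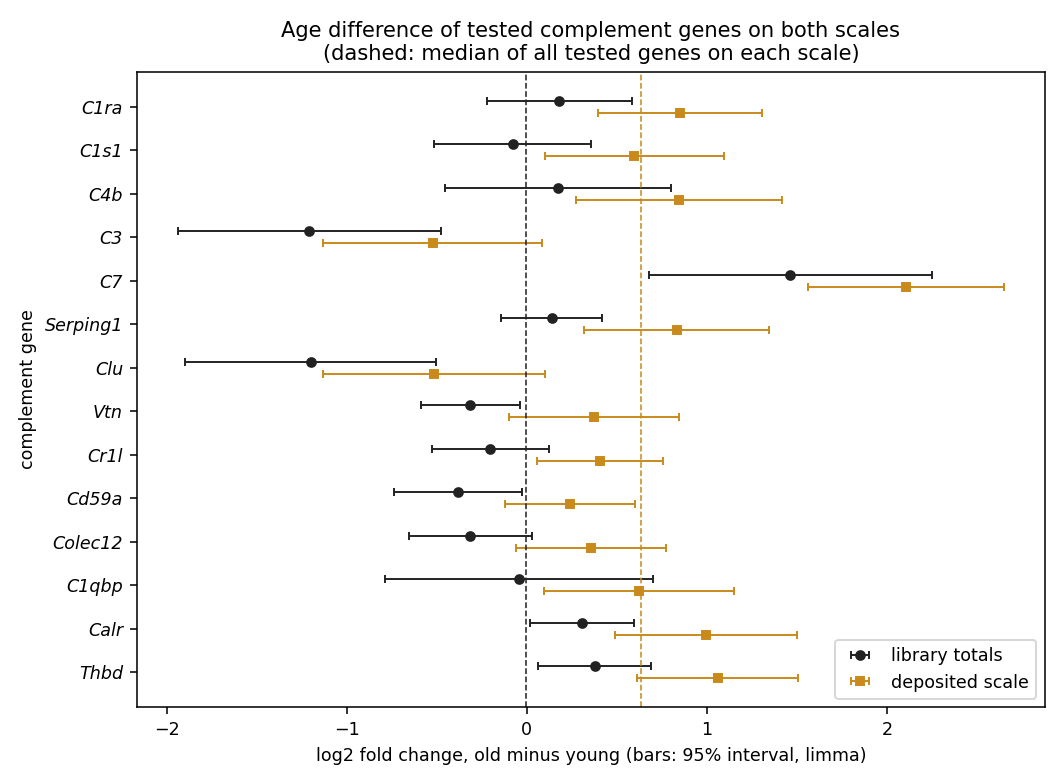
Log2 fold change, old minus young, with 95% intervals (limma) of 14 complement genes that passed the filter, on library totals (black) and on the deposited scale (orange); dashed lines mark the median of all tested genes on each scale, -0.01 and 0.64. On library totals C3 (-1.21) and Clu (-1.20) lie below 0 and C7 (1.46) above it with intervals clear of the median line. The intervals of Cd59a, Vtn, Calr and Thbd also clear that line, and these genes were not called.

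Signalling genes known to act on complement transcription were examined as a further list. Of 26 listed, 19 passed the filter, and 3 rose, 2 fell and 14 were not called on library totals, near the 12.3% of all tested genes that rose and the 12.7% that fell. The NF-kappaB subunit Nfkb1 rose by 0.66 ± 0.14, the interleukin-1 receptor Il1r1 by 0.62 ± 0.12 and the interferon-response factor Irf9 by 0.56 ± 0.11 (limma, adjusted p at most 0.00783). The interferon receptor chain Ifnar1 fell, and Irf1 fell by 0.78 ± 0.25 (adjusted p = 0.0421). Irf1 was no longer called when any of 6 libraries was removed on its own, nor under the replicate block, with thinned reads, without young libraries 1 and 2 or on the deposited scale. With deposited values 12 of the 19 were called higher, where 68.1% of all tested genes were.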

How the data were processed

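The authors deposited 1 table of RPKM values for 24630 genes and 8 libraries, with a small positive number in place of each zero. Per the submitters' processing notes, Trim Galore, STAR, featureCounts, Subread and edgeR were used with the builds mm10 and GRCm38. How these tools were set is not stated there. Spike-in RNA was added per the labels' protocols and was not used here, so neither scale was set against an outside standard. Per the same protocols, cDNA was made from 10 ng of RNA with oligo(dT) priming. No strand setting is stated.

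Whole reads were recovered from the steps of the deposited RPKM for 100% of genes (allowed distance from a whole number 0.005) and gave reads in genes per library. Each RPKM value was multiplied by the authors' library size over these reads ("library totals"). limma 3.58.1 (R 4.3.3) with a trend was fitted to log2(RPKM + 1) without covariates over genes whose mean reached 5 RPKM, and was tested on simulated data. Fold changes on this scale understate the change of low genes. The 3 genes under the filter and the marker sums had exact permutation tests. Alternatives were pseudocounts, filters, scalings, left-out libraries, limma-voom, thinned reads and a replicate block. Coordinates are from GENCODE M21 (GRCm38). Intervals are limma's and cover the spread between animals, while floors of 3 reads cover counting error only.

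The 9 genes, the lists and the filter were chosen with earlier results of these data known. All 9 were named, and of the other list those called on library totals in the main or the wider fit and the 4 highest under the filter. For the 3 most abundant tested genes the 3 most similar profiles were named. Of the list of other complement genes, 1 entry is not reported here.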

Additional observations from a re-analysis of the deposited data

Results flagged for a closer look

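Values of 3 among 36 groups of 4 libraries held a library far from the others, where chance flags about 1 in 20. For C4b in young animals the gap of library 3 (53.3 RPKM) to the nearest library (26.3 RPKM) was 0.921 of the group's range. For Cd59a in old animals the gap of library 3 (9.77 RPKM) to library 1 (6.93 RPKM) was 0.876 of the range. For the summed satellite cell markers in young animals the gap of library 4 (17005 CPM) to library 3 (13838 CPM) was 0.863 of the range. Each exceeded the critical value for groups of this size.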

How the results depend on the processing

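The counts of complement genes called on library totals (0 higher, 2 lower) stayed within 1.5 times of these values under the pseudocounts, the filters of 1 and 10 RPKM, the model without a trend, limma-voom, thinned reads, the median ratio, and with young libraries 1 and 2 or both libraries 3 left out. Without a filter 4 were lower, on the deposited scale 3 were higher and 0 lower, and with single libraries left out 0 to 3 were lower. On the deposited scale itself (3 higher, 0 lower), leaving out young libraries 1 and 2 gave 0 higher and 2 lower, and single libraries 2 to 3 higher and 0 to 2 lower. Of the other complement genes (1 higher, 0 lower), 6 were higher on the deposited scale and 2 with a filter of 1 RPKM. Without a filter 3 of the 55 were higher and 29 lower. Of all tested genes (700 higher, 722 lower), the deposited scale called 3882 higher and 64 lower, and the fit without both libraries 3, with fewer samples, 445 higher and 463 lower. Filters of 1 and 10 RPKM called 2479 and 386 lower, with different numbers of genes tested. Without a filter 10148 genes were lower, among the 24630 genes less 1169 without a read. The 4 and 29 complement genes lower without a filter are to be read beside that share. Silent receptor genes were also higher in young libraries (0.210 to 0.996 RPKM) than in old (0.0342 to 0.0518 RPKM). Single libraries left out gave 480 to 805 higher and 492 to 810 lower.

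The sign of some uncalled values turned. C4b was -0.13 and C1ra -0.0857 without young libraries 1 and 2, where Serping1 was -0.006. With single libraries left out C4b ran between -0.0735 and 0.44 and C1ra between -0.0058 and 0.27. Cd59a was 0.24 on the deposited scale. The difference of Cfb was 0.00454 RPKM without young libraries 1 and 2 and -0.148 to -0.0429 RPKM with single libraries left out, against -0.0936 RPKM. That of Cfd ran between -0.567 and -0.318 RPKM. The difference of Cd55, -2.69 RPKM, was -2.12 without young libraries 1 and 2, -3.18 without both libraries 3, -0.586 on the deposited scale and -3.10 to -2.41 with single libraries left out; smaller groups allow no lower p than 0.0667 and 0.1 in the first 2 cases.

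The fits without both libraries 3 and the marker sums on the deposited scale were chosen after seeing the data. As log2 ratios, old over young, those sums were 0.72 (satellite cell), 0.59 (fibroblast), 0.27 (adipocyte), 0.47 (macrophage), -0.11 (endothelial) and 0.30 (pericyte). Single libraries left out gave -0.0527 to 0.12 for satellite cell, -0.15 to 0.0759 for fibroblast, -0.50 to -0.33 for adipocyte, -0.40 to -0.025 for macrophage, -1.08 to -0.60 for endothelial, 1.60 to 2.12 for tenocyte, -0.60 to -0.20 for pericyte and -3.24 to -2.39 for hepatocyte markers.

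Deviations of same-numbered libraries correlated at -0.17, -0.06, 0.39 and -0.24, and those of differently numbered libraries at -0.40 to 0.41. So few values cannot show whether the replicate numbers pair the samples. With the replicate block 2 complement genes were lower and 0 higher, and 636 of all genes were higher and 662 lower.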
